A study of Mus musculus with 2 samples.

Results

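Mir221 and Mir222 are neighbouring microRNA genes on the mouse X chromosome whose main products carry the same seed, the stretch of bases by which a microRNA finds its targets. They were chosen by gene name, as the 2 rows of each deposited table whose Ensembl identifiers belong to Mir221 and Mir222 in GENCODE M21, out of 2202 microRNA genes. Both were measured in 2 microRNA-seq libraries of adrenal gland tissue from C57BL/6J mice supplied by The Jackson Laboratory. The libraries form 1 group of wild-type tissue with no treatment named, and the labels number them biological replicates 2 and 1. The labels give age as unknown, and call the mice female in one field while another says that sex was not collected. Each library has its own tissue sample but the same donor identifier, so their differences may be technical, and no comparison between conditions is possible. The replicate 2 library held 6570375 counts on the strand of a microRNA gene and the replicate 1 library 9137907.

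A microRNA is cut from a hairpin in its primary transcript, first in the nucleus by Drosha and then in the cytoplasm by Dicer, and its mature strand guides Argonaute to messenger RNAs that pair with its seed. miR-221 and miR-222 are best known for lowering the cyclin-dependent kinase inhibitor p27, the product of Cdkn1b, and for their work in blood vessels. In human endothelial cells they lower the receptor tyrosine kinase KIT, and in vascular smooth muscle of the rat they favour proliferation. In the adrenal gland, a richly vascularised organ with a steroid-making cortex and a catecholamine-making medulla, a level from whole tissue does not say which cells hold the microRNA. Fewer cells of a type and less RNA per cell cannot be told apart in such samples.

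The hairpins are shown first because they are the units that were counted. The sequences come from RefSeq on GRCm38.p6, the assembly that mm10 names, and both members matched. Mir221 (ENSMUSG00000065422.1) lies at chrX:19146294-19146388 on the minus strand and is 95 bases long, and Mir222 (ENSMUSG00000065471.1) lies at chrX:19146893-19146971 on the same strand and is 79 bases long. Capitals mark the mature products that RefSeq lists.
Mir221 hairpin: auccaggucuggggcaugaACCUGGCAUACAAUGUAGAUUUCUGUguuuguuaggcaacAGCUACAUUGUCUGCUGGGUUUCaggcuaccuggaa
Mir222 hairpin: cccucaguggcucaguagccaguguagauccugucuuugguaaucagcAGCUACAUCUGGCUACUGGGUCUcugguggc
The hairpins are separated by 504 bases, and no other GENCODE M21 gene overlaps the interval from one to the other. Since the strand is minus, Mir222 comes first in the direction of transcription. The nearest annotated gene on the upstream side is the processed transcript Gm14636 of the same strand, 10009 bases away, and the nearest protein-coding gene there is Tex13c3 at 332 kb. On the other side the processed pseudogene Gm5383 lies at 203 kb and the protein-coding gene 4930578C19Rik at 685 kb. The annotation therefore places both hairpins between genes, outside any exon, intron or UTR.

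The mature sequences show what the members share and where they part. Capitals mark the seed, bases 2 to 8 counted from the 5′ end.
mmu-miR-221-3p: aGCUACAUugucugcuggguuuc
mmu-miR-222-3p: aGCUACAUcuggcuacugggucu
mmu-miR-221-5p: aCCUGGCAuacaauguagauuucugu
mmu-miR-1928: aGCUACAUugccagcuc
miR-221-3p and miR-222-3p are both 23 bases long and are identical over their first 8 bases, seed included. Aligned without gaps they match at 11 of 23 positions. The differences from miR-221-3p to miR-222-3p begin with U9C and end with C23U, and 12 positions differ in all. The miR-221-5p product of the other arm has a different seed. Among the 1738 mature entries of the RefSeq table, 1 other entry has the seed GCUACAU, miR-1928 from chromosome 1. Mir1928 had no count in either library, which allows up to 0.457 CPM in replicate 2 and 0.328 CPM in replicate 1 from counting error (3 counts), for reads with a single alignment.

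Whether reads of one member could be taken for the other depends on shared runs of bases. The longest run common to both hairpins is 9 bases. No run of 18 bases in either hairpin occurs in another of the 2202 hairpins, whereas 1128 of those hairpins share such a run with another. In GENCODE M21 transcripts of all kinds, 2 transcripts other than Mir221 share an 18-base run with its hairpin and 1 with that of Mir222, none of them within a mature product. Reads with several alignments were left out of gene counts by the authors' tables and made up 36.0% of the reads in replicate 2 and 35.9% in replicate 1. Matches in unannotated sequence of the genome were not tested.

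Mir221 was the member with more counts and had close levels in the libraries. Its count was 8684 in replicate 2 and 12356 in replicate 1. Its level was 1322 CPM (counts per 1000000 counts on the strand of microRNA genes, with an exact 95% Poisson interval of 1294 to 1350) in replicate 2 and 1352 CPM (1328 to 1376) in replicate 1. The intervals overlap, and the mean level was 1337 ± 21.6 CPM (SD, n = 2). Mir221 ranked 69th among the genes of replicate 2 and 63rd among those of replicate 1.

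Mir222 had fewer counts and its levels differed widely. Its count was 1555 in replicate 2 and 4704 in replicate 1. Its level was 237 CPM (225 to 249) in replicate 2 and 515 CPM (500 to 530) in replicate 1, with intervals far apart. The mean was 376 ± 197 CPM (SD, n = 2), and either library alone gives a value far from it. Mir222 ranked 137th in replicate 2 and 105th in replicate 1. These Poisson intervals cover counting error only. The reads carry no stated molecular identifiers, so repeat reads of the same molecule cannot be told apart, and the intervals may be too narrow.

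**Figure D1:**
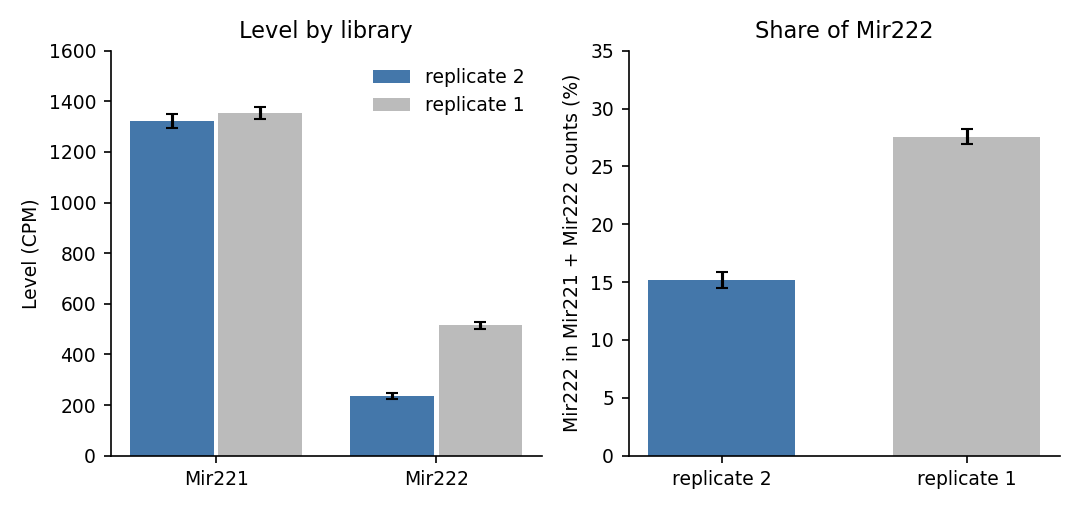
Left, level of Mir221 and Mir222 in CPM in the replicate 2 and replicate 1 libraries, with exact 95% Poisson intervals. Right, share of Mir222 in the summed counts of both genes in percent, with exact 95% binomial intervals. The bars of Mir221 are near the same height, while Mir222 stands at 237 CPM in replicate 2 and 515 CPM in replicate 1.

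Counted together, as microRNAs of the same seed, the members held 0.156% of the counts in replicate 2 and 0.187% in replicate 1, or 1558 and 1867 CPM. The seed was thus supplied mostly by Mir221 in these counts, although a hairpin count does not tell its arms apart. The counts on the opposite strand were 0 and 0 for Mir221 and 0 and 1 for Mir222 in replicates 2 and 1. Nearly every read over the hairpins therefore lay on the strand of the genes.

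The genes closest in level give a scale for these values. By distance in log2(CPM + 1) over both libraries, Mir221 was nearest to Mir409 (1385 CPM in replicate 2 and 1290 CPM in replicate 1), Mir146 (1396 and 1247 CPM) and Mir378a (1475 and 1418 CPM). Mir409 is a microRNA of the imprinted Dlk1-Dio3 region, and Mir146 is known from innate immune signalling. Mir409 was also next above Mir221 in mean level, at 1337 ± 66.9 CPM, and Mir146 next below, at 1322 ± 105 CPM. Those means lie within 1 SD of each other, so the order of the 3 genes is not resolved. Likeness over 2 libraries is a description of level and ratio only.

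Mir222 was nearest to Mir338 (282 CPM in replicate 2 and 484 CPM in replicate 1), Mir142 (231 and 416 CPM) and Mir137 (324 and 464 CPM). Mir142 is known from blood leukocytes, and Mir137 from neurons. Each was lower in replicate 2, as closeness to Mir222 in both libraries entails. Mir338 was next above Mir222 in mean level, at 383 ± 143 CPM, and Mir1843a next below, at 364 ± 6.95 CPM. Since the SD of Mir222 was 197 CPM, its place among them is not resolved either.

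The only comparison between samples is of replicate 2 with replicate 1, each gene's counts being set against the ratio of library sizes scaled by TMM, edgeR's correction for composition. Log2 ratios are replicate 2 over replicate 1, so a negative value means lower in replicate 2. The test sets library against library and not condition against condition, and knows counting error only. Mir222 was 2.34-fold lower in replicate 2, at a log2 ratio of -1.22 (95% counting interval -1.31 to -1.14), and passed the exact two-sided binomial test with a Benjamini-Hochberg adjusted p of 3.12e-207. Mir221 was 1.10-fold lower there, at a log2 ratio of -0.14 (-0.18 to -0.10), with an adjusted p of 5.67e-11 in the same exact test.

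Passing this test was common. Of 426 genes with at least 20 counts over both libraries, 239 (56.1%) passed at an adjusted p under 0.05, of which 110 (25.8%) were higher in replicate 2 and 129 (30.3%) lower. With 2 members, that both passed and both were lower is not a result about the pair. By total counts in place of TMM the split was 150 higher and 93 lower, and the median log2 ratio of the tested genes was 0.08 in place of -0.03. The small difference of Mir221 did not survive that scaling, with a log2 ratio of -0.03 and an adjusted p of 0.167 in the exact binomial test. Mir222 was lower in replicate 2 under every scaling and in either count column, between -1.24 and -1.12, where Mir221 ran between -0.15 and -0.03.

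The difference of Mir222 was large for genes of its level. Over all tested genes, the median absolute log2 ratio was 0.29. A log2 ratio as low as that of Mir222 or lower was found in 17 of the 426 genes, itself included (3.99%). Among the 63 other tested genes whose mean level was within 2-fold of that of Mir222, 3 differed at least as far in either direction and 1 was at least as low, while their median absolute log2 ratio was 0.23. Mir221 lay inside the usual range, since 29 of 51 genes near its level had an absolute log2 ratio at least as large, with a median of 0.19.

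**Figure D2:**
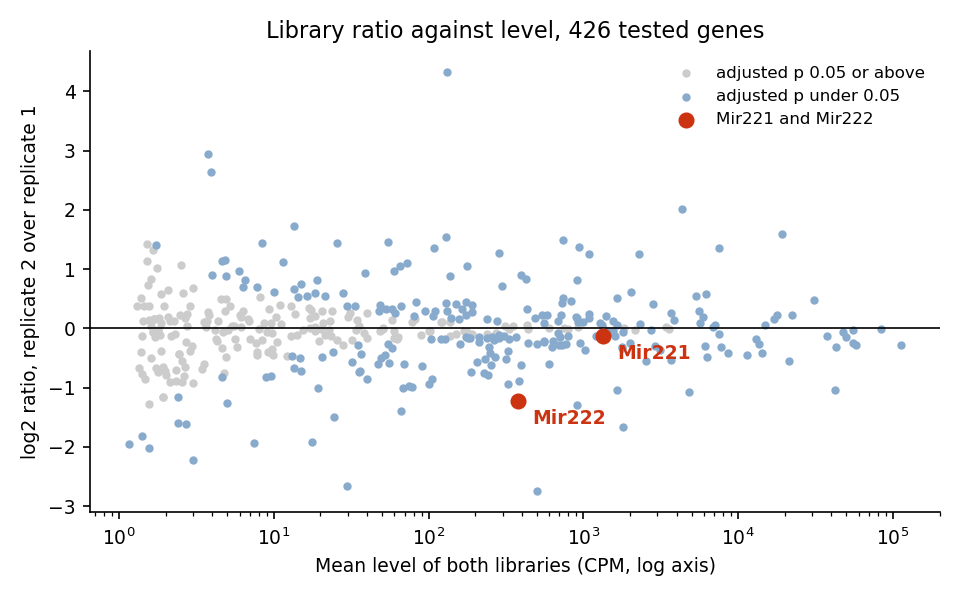
Log2 ratio of replicate 2 over replicate 1 against mean CPM on a log axis for the 426 tested genes, with genes that passed the exact binomial test in blue. Mir221 at -0.14 lies among the bulk of genes near its level, and Mir222 at -1.22 lies at the lower edge.

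The share of each member in the pair needs no scaling between libraries. Mir222 made up 15.2% (exact Clopper-Pearson 95% interval 14.5 to 15.9) of the 10239 counts of the pair in replicate 2 and 27.6% (26.9 to 28.3) of the 17060 in replicate 1. The odds of a read being from Mir222 were 0.470 times as high in replicate 2 (Fisher's exact test, two-sided, p = 3.68e-128). Mir221 had 5.58 counts for each count of Mir222 in replicate 2 and 2.63 in replicate 1. A small RNA read covers a whole mature product, so counts were not divided by length. Per base of hairpin, the ratio of levels was 4.64 in replicate 2 and 2.18 in replicate 1. Mir221 thus had more counts than Mir222 in both libraries on either scale, and by how much differed beyond counting error. Recovery of the 2 sequences as reads was not calibrated, so these are ratios of reads and not of molecules.

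Other neighbouring microRNA genes show how far such genes can part between these libraries. Consecutive genes of the same strand within 10 kb, each with at least 20 counts, formed 97 pairs. The absolute difference of log2 ratios within a pair had a median of 0.44, and 74 pairs differed by less than 1. Mir221 and Mir222 differed by 1.09 and stood 19th in order, with 18 pairs further apart. A gene that shares an 18-base run with another hairpin, so that its counts may miss reads that align to more than one place, was held by 8 of those 18 pairs and by 37 of all 97. Without such pairs, 10 of 59 others were further apart than Mir221 and Mir222.

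Both genes had a mature product listed in RefSeq in 94 of the 97 pairs. Of these, 24 shared a listed seed on at least 1 arm, with a median difference of 0.35. RefSeq need not list both arms, as for Mir222, so a shared seed can be missed. Of the 23 such pairs other than Mir221 and Mir222, 5 were further apart. Mir30b and Mir30d, members of the miR-30 family, were not among the 94 and differed by 1.19. Mir302a and Mir302d differed by 1.23 and Mir130b and Mir301b by 0.23, and neither pair shared a listed seed though each is of 1 family. The 24 and the 5 may therefore leave out pairs of a shared seed. They may also hold pairs whose main products differ in seed, since a match on any listed arm was enough. Of the 5, Mir16-1 and Mir15a differed by 2.47, with Mir15a at 5980 counts in replicate 2 and 24534 in replicate 1. Mir497 and Mir195a differed by 1.25, with Mir497 at 3600 counts in replicate 2 and 11477 in replicate 1. The other 3 were Mir200a with Mir200b, Mir181a-2 with Mir181b-2, and Mir450-1 with Mir450-2, where the scarcer gene had 32, 368 and 76 counts over both libraries. The pairs of Mir16-1, Mir181a-2 and Mir450-1 hold a gene that shares an 18-base run with another hairpin, and those of Mir497 and Mir200a do not. At the other end, Mir181d and Mir181c differed by 0.014, and Mirlet7c-2 and Mirlet7b by 0.020. Mir363 and Mir92-2 differed by 0.074, and Mir34c and Mir34b by 0.11. Here the pairs of Mirlet7c-2 and Mir363 hold a gene that shares an 18-base run with another hairpin, and those of Mir181d and Mir34c do not. A difference of the size seen between Mir221 and Mir222 was thus found in other neighbouring pairs of these libraries too.

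**Figure D3:**
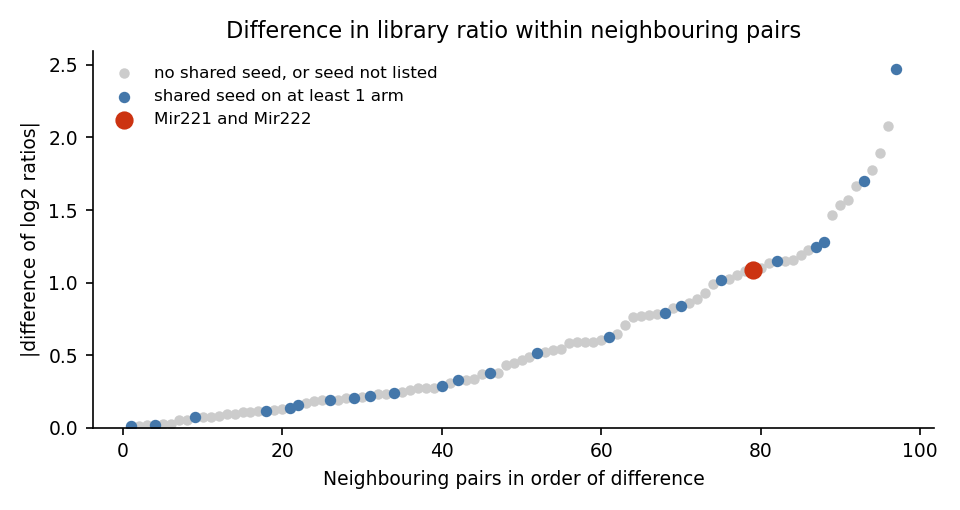
Absolute difference of log2 library ratios within each of 97 neighbouring pairs of microRNA genes, in rising order. Pairs that share a listed seed are in blue. Mir221 and Mir222 at 1.09 lie in the upper part of the curve, below 18 other pairs.

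Among microRNAs known from endothelium and vascular smooth muscle, levels ran above and below that of Mir221. The list of 15 genes was led by Mir126a, which supports angiogenic signalling in endothelium, at 58001 ± 5199 CPM, then Mir23b at 55295 ± 3888 CPM and Mir10a at 54938 ± 2159 CPM (SD, n = 2 each). Mir145a, a microRNA of contractile smooth muscle, had 1185 CPM in replicate 2 and 977 CPM in replicate 1, which is nearer to the level of Mir221. All 15 passed the exact test, 7 higher and 8 lower in replicate 2, beside 56.1% of all tested genes (25.8% higher and 30.3% lower). The median log2 ratio was -0.02, and -0.03 for all tested genes. By total counts 8 were higher and 6 lower, beside 150 higher and 93 lower of all 426 tested genes. None was as low as Mir222, the closest being Mir23a at -1.04 with 189966 counts in replicate 2 and 505300 in replicate 1. Mir126a had a log2 ratio of -0.29 and Mir143, the other smooth muscle microRNA of the list, of -0.41.

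A second list held 7 other microRNA genes reported to act on cyclin-dependent kinase inhibitors, the class of proteins to which p27 belongs. Mir93 led it at 1637 ± 127 CPM, ahead of Mir17 at 1591 ± 18.8 CPM and Mir106b at 623 ± 66.6 CPM (SD, n = 2 each). Mir93, Mir17 and Mir106b are known for lowering p21. All 7 passed, 3 higher and 4 lower in replicate 2, where 56.1% of all tested genes passed, genes of few counts included. As for the first list, passing at such counts does not set these 7 apart. Their median log2 ratio was -0.13, against -0.03 for all tested genes. Mir24-1, at 1.35, was the furthest from 0, and it has a copy of the same mature sequence in Mir24-2 at -0.49, so both counts are uncertain. Mir221 lay within the range of levels of this list and Mir222 near Mir24-2, at 269 CPM on average.

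Chromosome X holds 140 other microRNA genes in the tables, of which 34 had at least 20 counts. Their leading members were Mir652 at 13536 ± 1103 CPM, Mir322 at 8548 ± 1324 CPM and Mir98 of the let-7 family at 7706 ± 774 CPM (SD, n = 2 each). Of the 34, 7 were higher and 15 lower in replicate 2, and 12 did not pass, where 25.8% of all tested genes were higher and 30.3% lower. Their median log2 ratio was -0.11, against -0.03 for all tested genes. By total counts 11 were higher and 12 lower, beside 150 higher and 93 lower of all 426 tested genes. Mir547 at -1.50, with 88 counts in replicate 2 and 324 in replicate 1, was the only one as low as Mir222.

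**Figure D4:**
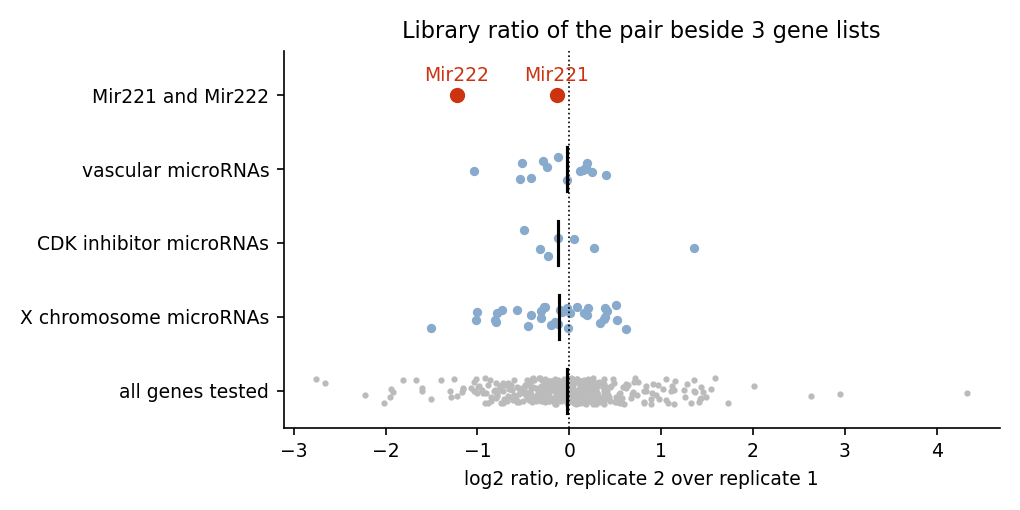
Log2 ratio of replicate 2 over replicate 1 for Mir221 and Mir222, for the tested genes of the 3 lists and for all tested genes, with black bars at the medians. The lists' medians lie between -0.13 and -0.02, near that of Mir221 at -0.14 and far above Mir222 at -1.22.

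Markers of the cell types and neighbouring tissues that the gland's samples could hold were read beside Mir222. The 3 leukocyte markers summed to 872 CPM in replicate 2 and 1010 CPM in replicate 1, with Mir142 at -0.95 and Mir223 at -0.73 lower in replicate 2 and Mir150 at 0.32 higher. The endothelial marker Mir126a had 54325 CPM in replicate 2 and 61677 CPM in replicate 1. The smooth muscle and fibroblast markers Mir143 and Mir145a summed to 13885 and 16736 CPM, with Mir143 at -0.41 and Mir145a at 0.17. The neuroendocrine markers Mir375 and Mir7b, known from hormone-secreting cells and neurons, summed to 51451 CPM in replicate 2 and 53659 CPM in replicate 1. The erythroid markers Mir451a and Mir144 summed to 270 and 131 CPM, with Mir451a at 1.06 and Mir144, which did not pass, at 0.13. The kidney markers Mir192 and Mir204 summed to 87.1 and 78.6 CPM, with Mir192 at -0.29 and Mir204 at 0.29. Liver Mir122 had 71.5 CPM in replicate 2 and 128 CPM in replicate 1, and the muscle markers Mir1b and Mir206 summed to 5.17 and 4.27 CPM. Mir206 had only 3 counts in replicate 2 and 2 in replicate 1, too few to be tested. The part of these markers in the Mir222 difference was not tested.

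The seed that both members share was finally looked up in 3′ UTRs of genes that have been reported as targets, mostly in human cells. The motif ATGTAGC, the reverse complement of the seed, was searched on the sense strand of the longest 3′ UTR of each protein-coding gene in GENCODE M21, with ATGTAGCA as the longer form that contains it. It was found in 9.43% of 20996 genes, and the longer form in 3.48%. Of 9 listed targets, 7 held the motif and 6 the longer form. The list was made of reported targets and several of its UTRs are long, so the count is a description. The following stretches of 30 bases on mm10 are shown because they are where either member could pair by its seed in its best-known targets, with the motif in capitals.
Cdkn1b, chr6:134924409-134924438, plus strand: catctgcctctaaaagcattggATGTAGCa
Cdkn1c, chr7:143458925-143458954, minus strand: cttcggctgggacctttcgttcATGTAGCa
Kit, chr5:75654970-75654999, plus strand: catccttaatgatgggagatatATGTAGCa
Kit, chr5:75656501-75656530, plus strand: ggctttttttgtaaatattgaaATGTAGCa
Cdkn1b encodes p27, Cdkn1c the related inhibitor p57, and Kit the stem cell factor receptor. All 4 stretches end in the longer form, whose first 7 letters are complementary to the seed common to miR-221-3p and miR-222-3p. The UTRs of Foxo3 and Stat5a did not hold these letters. No messenger RNA was measured here, so the libraries say nothing of these genes' levels.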

How the data were processed

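The deposited tables hold raw read counts per microRNA gene, 1 table a library, on mm10 with GENCODE M21, per the description deposited beside them. Adapters were trimmed, per the labels' protocols, and RNA below 30 (taken as nt) was selected, per the labels. The aligner and the counter were not given in the sources used here. The 3 count columns have no header and were read from their values as either strand, strand of the gene and opposite strand. Column 3 was used. Rows that name no gene were left out of library sizes. They hold unmapped reads (13.7% in replicate 2, 11.7% in replicate 1), reads with several alignments (36.0% and 35.9%) and reads outside microRNA genes (4.83% and 3.72%). A count covers a whole hairpin.

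CPM is per 1000000 counts on the strand of the gene. Genes with at least 20 counts over both libraries were compared between the libraries with an exact two-sided binomial test against TMM-scaled sizes (edgeR 4.0.16, R 4.3.3), adjusted over all of them by Benjamini-Hochberg at 0.05, with 0.5 counts added for log2 ratios. The quasi-likelihood test cannot be used with 1 library on each side. The Mir222 share was compared by Fisher's exact test (scipy 1.17.1). Alternatives were total counts, DESeq2 1.42.0 size factors, the either-strand column, other count minimums, 1 added count, other denominators and other neighbour distances. A near-identical copy means an 18-base run shared with another hairpin of GENCODE M21.

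The members and lists were chosen with earlier results of these data known. Named genes are the members, the 3 genes nearest to each in level, the next above and below, the leading 3 of each list, the markers and neighbouring pairs that share a seed. Mir145a, Mir23a, Mir24-1, Mir24-2, Mir547 and the neighbouring pairs given singly were picked after their values were seen.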

Additional observations from a re-analysis of the deposited data

How the results depend on the processing

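The level of Mir221, 1337 CPM on average, was 630 per 1000000 reads of all kinds and 1471 CPM in the either-strand column, both because the denominator changed. Mir222, 376 CPM on average, was 179 per 1000000 reads of all kinds, a change only just under its SD of 197 CPM. With either replicate left out, Mir221 ran between 1322 and 1352 CPM, and Mir222 between 237 CPM (replicate 2 alone) and 515 CPM (replicate 1 alone). By total counts Mir221 no longer passed the exact binomial test (log2 ratio -0.033, adjusted p = 0.167). Of 48 alternatives, 3 changed a result: the all-reads and either-strand denominators of the Mir221 level, and total counts for the Mir221 test. With TMM factors the Mir221 level was 1338 CPM on average and did not count as changed. In the other 45, a test kept its side of the threshold or a count moved by less than 1.5 times. A level moved by less than its SD, and a share of pairs stayed within its 95% binomial interval. Several of these could not have come out otherwise. With 2 libraries, leaving 1 out always moves a mean by less than the SD, and the added count does not enter the test. The 45 are therefore no measure of stability by themselves. Pairs of neighbours further apart than Mir221 and Mir222 made up 18.75% of the other pairs. Under other distances and count minimums they made up 14% to 19.7%, and the minimum of 1000 counts was chosen after seeing the data. Pairs within a cluster share genes and the alternatives share pairs, so the binomial interval of that share is only a rough scale. No paired analysis was possible because the series has 1 group. Arms of a hairpin and reads with several alignments are outside what these counts can show.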
